A study of Mus musculus with 8 samples.

Results

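The family of miR-130 and miR-301 was examined in the lumbar ventral spinal cord of mice. Its 4 members, mmu-miR-130a, mmu-miR-130b, mmu-miR-301a and mmu-miR-301b, were found by name among the 375 miRNA assays of TaqMan array card A, a plate of real-time PCR assays with 1 well per miRNA. The family was selected on the low miR-130b in the same comparison of genotypes that is described here. Its group differences are therefore given as a description of these samples, without p-values. The other members were taken in for their shared seed and, in the case of miR-301b, for its place beside miR-130b in the genome.

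miRNAs of 1 family carry the same seed, the bases next to the 5′ end that pair with target mRNAs, and can therefore bind the same sites. The family is known for repressing Pparg, the receptor that drives fat cell formation, and its members have been studied in blood vessels and in tumour cells. In the mouse its genes lie on different chromosomes, and miR-130b and miR-301b are made from neighbouring hairpins.

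The wild type group held 4 samples of FVB mice, named by the study as the control strain, and the transgenic group 4 samples of MLC/SOD1[G93A] mice. All were at the age of 4 months, and the study calls the wild type mice littermates. The transgenic mice carry mutant SOD1, a cause of inherited amyotrophic lateral sclerosis, under a myosin light chain promoter that is active in skeletal muscle, so the cord was compared in animals whose transgene is directed to another tissue. Wild type columns carry the numbers 1 to 4, and transgenic columns carry 5a to 8a, which could be tied to the group but not to single sample labels. Each sample had 600 ng of total RNA reverse transcribed and had 1 card, and nothing in the labels says that the samples were pooled.

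The mature sequences are shown first, from RefSeq (mouse build GRCm38.p6), because the seed is what defines the family. Capitals mark bases 2 to 8, the seed. The assays of card A carry older names without an arm, and the -3p arm is shown as the strand that holds the family seed.
mmu-miR-130a-3p: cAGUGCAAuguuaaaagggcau
mmu-miR-130b-3p: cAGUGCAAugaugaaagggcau
mmu-miR-301a-3p: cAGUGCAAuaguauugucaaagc
They lie at chr2:84741116-84741137 on the minus strand, chr16:17124071-17124092 on the minus strand and chr11:87113054-87113076 on the plus strand, in that order. All 3 began with the same 9 bases. miR-130a-3p and miR-130b-3p were equal at 20 of 22 positions counted from the 5′ end, whereas miR-301a-3p matched miR-130a-3p at 12 of 22 and miR-130b-3p at 11 of 22. The seed was carried by 7 of 1679 mouse mature miRNAs in the RefSeq table (0.417%), among them miR-130c, miR-721, miR-6341 and miR-6389, which were not analysed here. The mature sequence of miR-301b was missing from that table, so it is not shown and not counted. Its hairpin, shown next, holds the letters of the seed.

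The hairpins of miR-130b and miR-301b are shown because these members share a locus and their values are set side by side. Capitals again mark the letters of the seed.
Mir130b: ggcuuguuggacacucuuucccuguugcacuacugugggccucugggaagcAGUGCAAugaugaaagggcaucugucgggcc
Mir301b: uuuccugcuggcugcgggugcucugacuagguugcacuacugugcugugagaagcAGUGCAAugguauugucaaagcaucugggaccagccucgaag
The first lies at chr16:17124061-17124142 and the second at chr16:17124400-17124496, both on the minus strand, with 257 bases between them. Both lie within the span of the protein coding gene 2610318N02Rik. The hairpin of miR-301a lies within the span of Ska2, a gene of the spindle and kinetochore complex, and that of miR-130a within no other gene span. The table holds gene spans only, so exons and introns were not told apart. The seed letters were found in 12 of 1005 mouse hairpins (1.19%).

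Before the members are described, the samples that stood apart are named. U6, the small nuclear RNA used as reference, had the lowest mean threshold cycle (Ct) in 7a, at 16.88, against 17.45 to 18.50 in the other samples, and its 4 wells spanned 2.14 cycles there and 1.97 cycles in 8a against 0.39 to 1.05 in the others. In 8a, 1 of 213 wells with a Ct in every sample lay more than 4 cycles above all other samples, and this well was miR-301b. miR-197, miR-339-5p and the control U87 lay more than 4 cycles below all others in 8a, and miR-362-3p more than 4 cycles above in wild type 1 (these 4 were named after their values were seen). For the tissue named in the labels, the 4 neuronal, 2 oligodendrocyte and 3 caudal cord markers examined passed the detection filter, as did the 3 muscle markers miR-1, miR-133a and miR-133b. Because whole tissue was measured, fewer cells of a type and less RNA per cell cannot be told apart.

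Among the 4 members, miR-301b had the lowest Ct, followed by miR-301a, miR-130a and miR-130b (a low Ct stands for more RNA, and 1 cycle for 1 unit on the log2 scale). This order was seen in 6 of 8 samples. 6a had the same order with no Ct for miR-130b, and in 8a miR-301b came last. Assays differ in efficiency, so the order compares wells and gives only a rough order of amounts. Over the wild type samples miR-301b and miR-301a took places 63 and 100 from the lowest mean Ct among 212 miRNAs measured in all 4, and miR-130a place 176. miR-130b could not be placed, because it exceeded a Ct of 35 in 1 wild type sample. The neighbours in the order were not always apart beyond their spread: the wild type Ct values of miR-301b (26.89 to 27.54) ended below those of miR-301a (27.85 to 29.34), which ended below those of miR-130a (30.5 to 32.18), whereas those of miR-130a and miR-130b (31.08 to 35.7) overlapped.

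**Figure D1:**
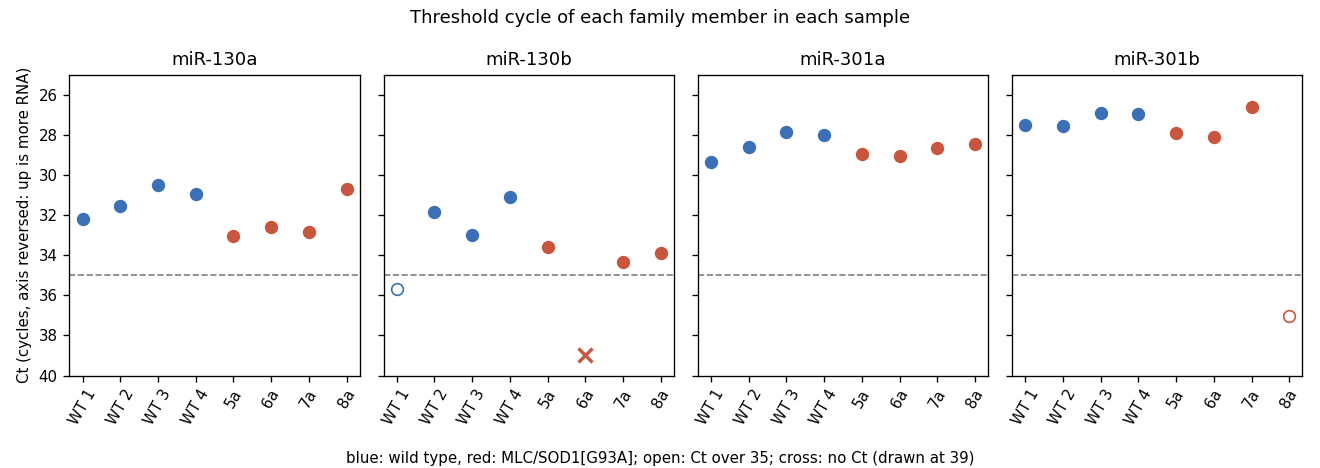
Ct of each family member (cycles, axis reversed so that more RNA is higher) in the 4 wild type (blue) and the 4 MLC/SOD1[G93A] samples (red); open circles are Ct values over 35, the cross is a well with no Ct (drawn near the foot of the axis) and the dashed line is the limit of 35. miR-301a stayed between 27.85 and 29.34 in all samples, and miR-301b reached 37.05 in 8a.

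miR-130b, the member that led to the choice of the family, was near the detection limit. Its Ct was 35.7, 31.82, 32.98 and 31.08 in wild type 1 to 4, and 33.57, 34.32 and 33.88 in 5a, 7a and 8a, with no Ct in 6a. Each group thus had 1 well that was over 35 or undetermined, and the highest Ct recorded for the assay was in a wild type sample. With these left out, the log2 level relative to U6 (mean U6 Ct minus Ct) averaged -13.70 ± 0.81 (SD, n = 3) over the wild type samples and -16.14 ± 1.20 (SD, n = 3) over the transgenic ones. The difference was -2.45 (SE 0.77), a ratio of 0.183, and the 3 values of one group did not overlap the 3 of the other. It was the lowest difference of the 227 miRNAs tested, which is the value the choice rests on.

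The difference in miR-130b was smaller relative to the global mean, that is the mean Ct of the 190 miRNAs with a Ct of 35 or less in all 8 samples. On this scale its log2 level was -3.34, -4.87 and -3.06 in wild type 2 to 4, and -4.79, -5.63 and -5.61 in 5a, 7a and 8a. Wild type 3 lay below 5a, so that the groups overlapped. The means were -3.76 ± 0.97 (SD, n = 3) and -5.34 ± 0.48 (SD, n = 3), a difference of -1.58 (SE 0.52). When Ct values over 35 were kept, wild type 1 entered at -18.25 relative to U6, below every transgenic sample. The difference in miR-130b then became -1.31 (SE 1.09) relative to U6 and -0.84 (SE 0.84) relative to the global mean.

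miR-130a, whose mature sequence is the closest to miR-130b, had the second lowest difference of the family on both scales with Ct values over 35 left out, and the third lowest with them kept. Its Ct was 32.18, 31.53, 30.5 and 30.93 in wild type 1 to 4, and 33.04, 32.59, 32.82 and 30.7 in 5a to 8a. 3 transgenic samples had a higher Ct than every wild type sample, whereas 8a lay among the wild type samples. Relative to U6 the log2 level averaged -13.23 ± 1.13 (SD, n = 4) over the wild type samples and -14.33 ± 1.32 (SD, n = 4) over the transgenic ones, a difference of -1.10 (SE 0.73) and place 15 of 227 from the lowest.

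Relative to the global mean, the log2 level of miR-130a was -3.18, -3.05, -2.39 and -2.91 in wild type 1 to 4 and -4.26, -3.72, -4.13 and -2.43 in 5a to 8a. The groups overlapped through 8a alone. The difference was -0.75 (SE 0.41), and -1.15 (SE 0.29) with 8a left out. Without 8a the difference relative to U6 was -1.63. The mean of the transgenic group thus rested in part on 1 sample.

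miR-301a, whose hairpin lies on another chromosome than those of the other members, showed no separation of the groups. Its Ct was 29.34, 28.61, 27.85 and 28.01 in wild type 1 to 4, and 28.95, 29.06, 28.67 and 28.43 in 5a to 8a, so that the transgenic values lay inside the wild type range. The difference was -0.42 (SE 0.64) relative to U6 and -0.07 (SE 0.22) relative to the global mean, places 84 of 227 on both scales. On the second scale the levels were -0.05 ± 0.25 (SD, n = 4) and -0.12 ± 0.10 (SD, n = 4), and the difference was smaller than the spread between wild type samples. Relative to U6 the ratio was 0.745, and the authors' normalized values gave a difference of -0.425 (SE 0.64) under the same fit. In its own comparison, the study lists miR-301a as significantly lower in the transgenic cord, with a larger fold change, and lists no other member. The reason for this difference in outcome was not tested.

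miR-301b, the neighbour of miR-130b in the genome, gave 2 different readings that hang on 1 well. Its Ct was 27.49, 27.54, 26.89 and 26.97 in wild type 1 to 4, and 27.91, 28.1 and 26.6 in 5a to 7a, but 37.05 in 8a. With the value of 8a left out as over 35, the difference was -0.41 (SE 0.63) relative to U6, and 0.07 (SE 0.36) relative to the global mean, where the levels were 1.18 ± 0.25 (SD, n = 4) and 1.25 ± 0.74 (SD, n = 3). The sign thus turned with the reference, and both values were below 1 SE. With the well of 8a kept, the difference was -2.79 (SE 1.63) relative to U6 and -2.43 (SE 2.10) relative to the global mean.

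**Figure D2:**
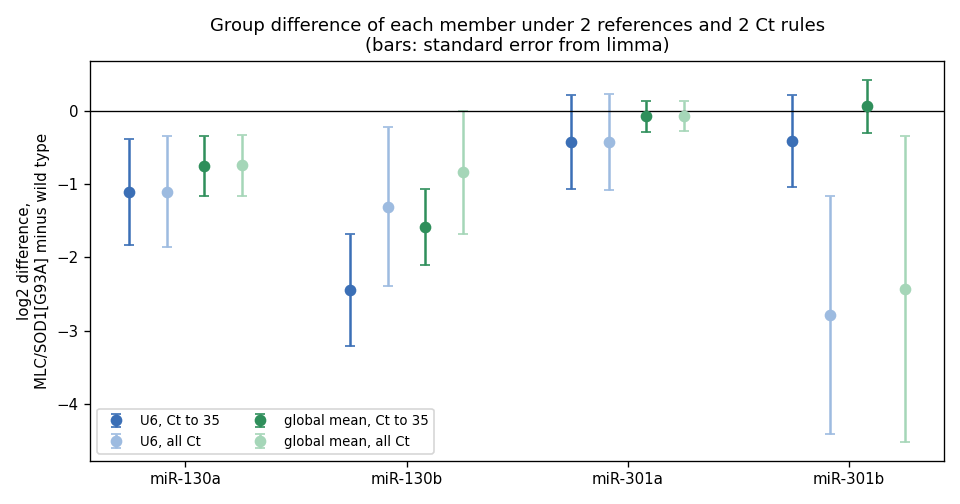
Difference between groups in log2 level (MLC/SOD1[G93A] minus wild type; points) with its standard error from limma (bars) for each member, relative to U6 or to the global mean, with Ct values over 35 left out or kept. miR-130a, miR-130b and miR-301a lay below 0 in all 4 settings. Relative to U6, when 1 well over 35 was kept, miR-130b moved from -2.45 to -1.31 and miR-301b from -0.41 to -2.79.

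The members were then read beside all miRNAs of the card. Relative to U6, all 4 members had a negative difference, with a median of -0.76, but so had 176 of 227 miRNAs, and the median of all was -0.31. The one member below an unadjusted p of 0.05 by limma was miR-130b, where the background was 5 of 227 miRNAs lower (2.2%), and nothing is read from this count because it is the contrast that chose the family. Groups did not overlap for miR-130b alone among the members, against 3 of 227 lower miRNAs without overlap (1.32%). Nothing is read from this either, since the same contrast chose the family and the overlap returned when wild type 1 was kept. After Benjamini-Hochberg adjustment in limma, 0 of 227 miRNAs (0%) passed 0.05, members included.

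Relative to the global mean, 3 members had a negative and 1 a positive difference, with a median of -0.41, and 105 of 227 miRNAs were negative with a median of 0.04. miR-130b was again the one member below an unadjusted p of 0.05 by limma, against 13 of 227 miRNAs lower (5.73%), and nothing is read from this count either. No member had groups without overlap, against 5 of 227 lower miRNAs (2.2%), and none of the 227 miRNAs passed after adjustment (0%). miR-130b took place 3 from the lowest and miR-130a place 13, while miR-301a and miR-301b stood at 84 and 118, in the middle of the card.

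**Figure D3:**
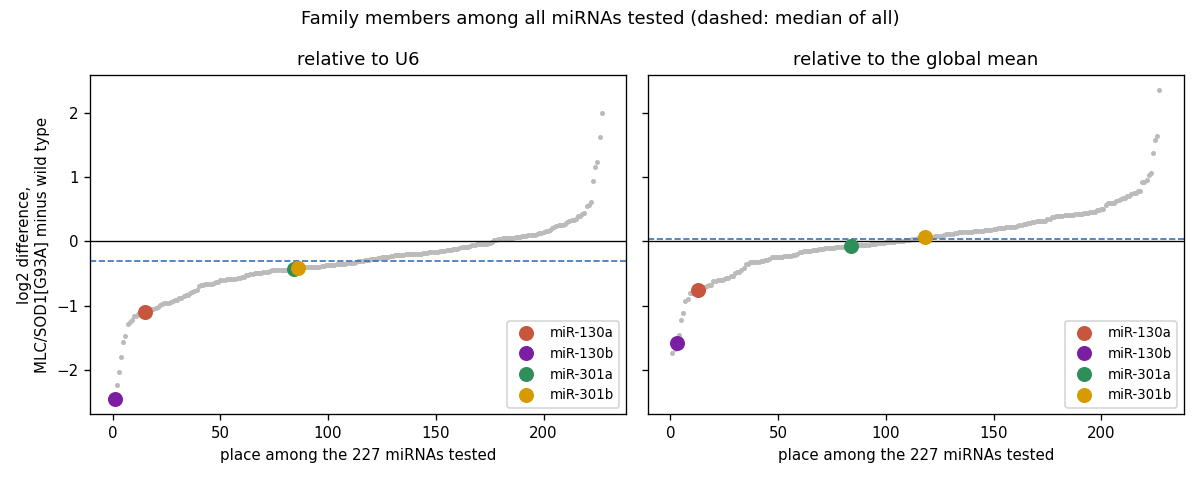
Difference in log2 level (MLC/SOD1[G93A] minus wild type) of all 227 miRNAs tested, ordered from the lowest, relative to U6 (left) and to the global mean (right); the dashed line is the median of all. miR-130b and miR-130a stood at places 1 and 15 on the left and 3 and 13 on the right, and miR-301a at 84 on both.

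Differences between members within a sample need no reference, since U6 cancels. miR-301b minus miR-301a was 1.85, 1.07, 0.96 and 1.04 log2 units in wild type 1 to 4, and 1.04, 0.96 and 2.07 in 5a to 7a. This pair lay near 1 in 5 of the 7 samples with both values. When the well of 8a was kept, its value was -8.62.

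miR-301a minus miR-130a was 2.84, 2.92, 2.65 and 2.92 in wild type 1 to 4, a spread of 0.13 (SD, n = 4). It was 4.09, 3.53, 4.15 and 2.27 in 5a to 8a. 3 transgenic samples lay above and 8a below every wild type sample, and the means differed by 0.68, or by 1.09 without 8a. The wild type samples were close to each other and the transgenic samples spread to both sides of them.

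The neighbouring pair was measured together in only 5 samples. miR-301b minus miR-130b was 4.28, 6.09 and 4.11 in wild type 2 to 4, and 5.66 and 7.72 in 5a and 7a. The transgenic value of 5a lay inside the wild type range. The means were 4.83 ± 1.10 (SD, n = 3) and 6.69 ± 1.46 (SD, n = 2), a difference of 1.86, which was 0.83 without 7a and 2.89 without 5a. With all Ct values kept, wild type 1 had 8.21, above every other sample, and 8a had -3.17. The difference of the means then turned to -2.27.

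miR-130b minus miR-130a, the pair with the closest sequences, was -0.29, -2.48 and -0.15 in wild type 2 to 4, and -0.53, -1.5 and -3.18 in 5a, 7a and 8a. The groups overlapped and the difference of the means was -0.76, less than the SD of 1.31 in wild type samples. It was -0.04 without 8a, -0.35 without wild type 4, -0.42 without wild type 2, -1.37 without 5a and -1.52 without wild type 3. With wild type 1 kept at -3.52, the difference was -0.13. No pair of members separated the groups.

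**Figure D4:**
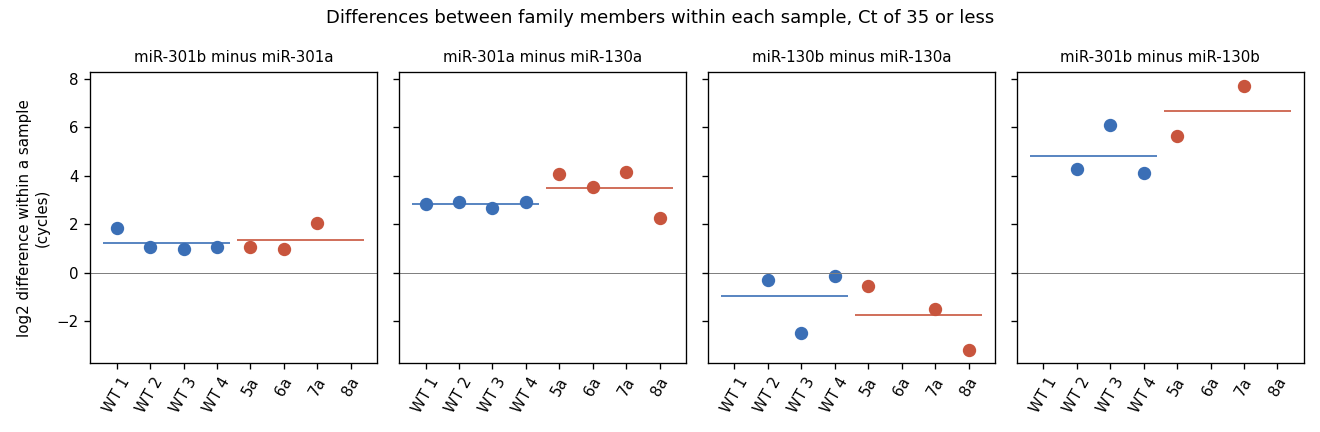
Difference in log2 level (cycles) between 2 members within each sample, for 4 pairs, with Ct values over 35 left out; blue is wild type, red is MLC/SOD1[G93A] and lines are group means. miR-301a minus miR-130a lay between 2.65 and 2.92 in wild type samples and between 2.27 and 4.15 in transgenic samples.

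Other miRNAs of the card have seeds that overlap that of the family by a shift of 1 base, and they were examined as a list set by sequence. Their mature sequences from RefSeq are shown, with bases 2 to 8 in capitals, so that the shift can be seen.
mmu-miR-19a-3p: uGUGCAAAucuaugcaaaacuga
mmu-miR-19b-3p: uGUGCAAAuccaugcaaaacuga
mmu-miR-148a-3p: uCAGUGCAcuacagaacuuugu
mmu-miR-148b-3p: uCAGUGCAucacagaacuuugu
mmu-miR-152-3p: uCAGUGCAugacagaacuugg
All 5 were tested. miR-19a and miR-19b, of the miR-17 to miR-92 cluster, differed by -0.92 (SE 0.73) and -0.88 (SE 0.66) relative to U6. miR-148a, miR-148b and miR-152, known for targeting the DNA methyltransferase Dnmt1, differed by 0.05 (SE 0.62), -0.22 (SE 0.89) and -0.59 (SE 0.74). None of the 5 passed an unadjusted p of 0.05 relative to U6, and their median of -0.59 lay below the median of -0.31 of all miRNAs. Relative to the global mean, 3 were negative and 2 positive, and miR-19b (-0.53, SE 0.23) was the one below an unadjusted p of 0.05 by limma, against 13 of 227 miRNAs lower (5.73%), which did not hold after adjustment.

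The miRNAs of the card whose profile over the samples was most like that of each member were named by the root mean square distance between levels relative to the global mean, each centred on its own mean. Only miRNAs with a Ct of 35 or less in all 8 samples could be named. miR-130b and miR-301b were thus not candidates, and these neighbours in the genome were not compared with each other. For miR-130a, over 8 samples, these were miR-361 (distance 0.39), miR-20b (0.41) and miR-126-5p (0.42), among 189 compared with a median distance of 0.80. miR-301a stood at place 40 in that order. For miR-130b, over the 6 samples in which it was measured, they were miR-129-5p (0.60), miR-451 (0.63) and miR-93 (0.70), against a median of 1.07 over 190. miR-301a stood at place 81 and miR-130a at place 123, so many of the miRNAs compared were closer to miR-130b than these members were. The profile of miR-130b itself spread by 1.01 (root mean square) around its own mean, and its distance to miR-301a was 1.03.

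For miR-301a, over 8 samples, the closest were miR-27a (0.0991), miR-29c (0.121) and miR-17 (0.158), against a median of 0.48. miR-130a was farther from it than most of the 189 compared. For miR-301b, over 7 samples, they were miR-135b (0.25), miR-204 (0.285) and miR-133b (0.30), against a median of 0.60 over 190, with miR-301a at place 27 and miR-130a at place 158. The distances describe 6 to 8 samples that share a reference, and no test was made.

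Markers of other cells were read beside miR-130b, since miR-451, a miRNA of red blood cells, was among its closest profiles. The Ct of miR-451 was 31.67, 28.96, 28.11 and 27.5 in wild type 1 to 4, and 30.13, 31.3, 30.64 and 29.66 in 5a to 8a. It was highest in wild type 1 and, among transgenic samples, in 6a, the samples in which miR-130b was over 35 or undetermined. The global mean Ct was also the highest of each group in these samples, at 29.00 and 28.87, as was the Ct of miR-301a (29.34 and 29.06). Relative to the global mean, miR-451 was still the lowest of each group there, at -2.67 and -2.43. The difference in miR-451 was -1.47 (SE 0.88) relative to U6 and -1.12 (SE 0.62) relative to the global mean. Of the 3 erythroid markers 2 were tested, and miR-486 differed by -0.26 (SE 0.62) relative to U6 and by 0.09 (SE 0.37), in the other direction, relative to the global mean. Neither passed an unadjusted p of 0.05, and their summed level relative to the global mean ranged from 2.20 to 3.45 in wild type and from 1.99 to 3.16 in transgenic samples.

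Of the 5 leukocyte and microglia markers 4 were tested, and 1 of them, the myeloid miRNA miR-223, was below an unadjusted p of 0.05 by limma, at -1.80 (SE 0.70) relative to U6 and -1.45 (SE 0.42) relative to the global mean, though not after adjustment. The background was 5 of 227 miRNAs lower (2.2%) on the first scale and 13 of 227 (5.73%) on the second. The other tested markers, miR-142-3p, miR-150 and miR-155, differed by -0.96, -0.15 and -0.21 relative to U6 and by -0.61, 0.20 and 0.14 relative to the global mean, so that the list held 4 negative differences on the first scale and 2 negative and 2 positive on the second. The summed level of the list relative to the global mean ranged from 3.76 to 4.68 in wild type and from 3.86 to 4.19 in transgenic samples. The part of blood or myeloid RNA in the values of miR-130b was not tested.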

How the data were processed

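Total RNA was profiled with TaqMan card A in 4 wild type and 4 MLC/SOD1[G93A] samples. The authors deposited Ct values, a score of the instrument software without normalization, and a normalized log2 table, in which the 2063 miRNA values equalled the Ct minus the mean Ct of the 4 U6 wells within 0.01. The authors' table of ratios between groups holds their own comparison and was not used. The log2 level was computed as mean U6 Ct minus Ct. Wells without a Ct, or with a Ct over 35, were missing, as in the methods of the study. miRNAs with at least 3 of 4 values per group were fitted with limma 3.58.1 in R 4.3.3 (transgenic minus wild type, no covariates, Benjamini-Hochberg adjustment over 227 miRNAs). The fit was also run on simulated data, with independent miRNAs and a common spread below the median spread of these data. That run does not show how well the fit recovers differences in these cards. Tables were made with Python 3.11.15. The members and lists were chosen with earlier results of these data known, and the miRNAs named are the members, the shifted-seed list, the 3 closest profiles per member, the markers and the controls. The labels do not say that each sample is another animal, so the SEs cover the spread between these samples, which may be technical. A card holds no read counts, and the number of cards limits the precision.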

Additional observations from a re-analysis of the deposited data

Results flagged for a closer look

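Over 23 sets of 4 values of the members and their pairs, 7 held a sample far from the other 3 of its group by Dixon's test. Chance gives about 1 in 20 for a single set. The sets reuse the same wells under several references, Ct rules and pairs, so no excess is read from this count. 4 of the 7 were the single well of miR-301b in 8a. Its log2 level was -19.09 relative to U6 against -9.72 to -9.41 in 5a to 7a, and -8.78 relative to the global mean against 0.77 to 2.09. Within 8a, miR-301b minus miR-301a was -8.62 against 0.96 to 2.07, and miR-301b minus miR-130a was -6.35 against 4.49 to 6.22.

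miR-301a lay apart in 7a, at -11.79 relative to U6 against -10.56 to -10.45 in the other transgenic samples, and on the other side, at 0.0245 relative to the global mean against -0.19 to -0.16. 7a was also the sample with the lowest mean U6 Ct (16.88). In the wild type group, miR-301b minus miR-301a was 1.85 in wild type 1 against 0.96 to 1.07 in the other samples.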

How the results depend on the processing

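The differences of miR-130a and miR-130b stayed negative under every alternative run, though miR-130a was only -0.16 (SE 0.36) with Y1. The runs reuse the samples in which miR-130b was chosen as low, so the unchanged sign is a description only. With the global mean, miR-301b was 0.0653, and limma gave 13 lower and 8 higher miRNAs at an unadjusted p of 0.05. With 8a left out as well (chosen after seeing the data), miR-301b was 0.0653. In that run 2 members were lower (miR-130a and miR-130b), and of 228 miRNAs 11 were lower and 6 higher. Nothing is read from this or any other count of members in these runs, since the same contrast chose the family. With all Ct values kept, miR-130b was -1.31, miR-301b -2.79 and 0 members were lower relative to U6; the global mean gave -0.84, -2.43 and 0, and 10 miRNAs were lower and 8 higher. With undetermined wells set to 40, miR-301b was -2.79, the median of the members -1.87, and 0 members were lower and 0 miRNAs higher. With the median U6 well, 0 miRNAs were higher. With snoRNA135 as reference, miR-301a was 0.0675 and miR-301b 0.00833, 2 members were negative and 7 miRNAs were higher. With snoRNA202, 2 members were lower, against 28 of 227 miRNAs lower. With Y1, miR-130b was -0.96, miR-301a 0.52 and miR-301b 0.78, 2 members were negative with a median of 0.18, 0 members and 0 miRNAs were lower and 67 were higher. With U87, miR-130a was -3.37, miR-130b -4.78, miR-301a -2.70 and the median -3.03, with 0 members lower, 0 miRNAs lower and 0 higher. The median of all miRNAs was 0.18 with snoRNA135, -0.36 with snoRNA202, 0.64 with Y1 and -2.58 with U87. The two-sided exact Mann-Whitney test gave 0 members, 0 lower and 0 higher miRNAs, and it cannot pass 0.05 where a group has 3 values, as for miR-130b. Within samples and with all Ct values kept, the group difference was -2.27 in miR-301b minus miR-130b, -2.37 in miR-301b minus miR-301a and -1.69 in miR-301b minus miR-130a. The cause of these shifts was not tested.

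Leaving out 1 sample at a time relative to U6, miR-130a ranged from -1.63 (without 8a) to -0.56 (without 7a), miR-130b from -2.98 (without 5a) to -1.80 (without 7a), miR-301a from -0.92 to -0.10 and miR-301b from -0.71 to -0.18. By limma at an unadjusted p of 0.05, 2 members were lower without wild type 1, where 34 of 231 miRNAs were lower. The count was also 2 without 8a, where 7 of 228 miRNAs were lower, and 1 in the other runs. No member passed after adjustment. Of all miRNAs, from 3 (without wild type 3 or 7a) to 34 (without wild type 1) were lower and 0 to 2 were higher. Nothing is read from the counts of members here either. miR-301b minus miR-301a ranged from -0.23 (without 7a) to 0.33. No paired analysis was made, because nothing in the labels pairs a wild type sample with a transgenic sample.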
